A study of Mus musculus with 2 samples.

Results

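The microRNA genes described here are those of the miR-23, miR-27 and miR-24 clusters, a pair of short gene clusters that each encode 1 copy of the 3 microRNAs. Members were taken by name, after matching the gene identifiers of the count tables to symbols: Mir23a, Mir27a and Mir24-2 of the chromosome 8 cluster, and Mir23b, Mir27b and Mir3074-1 of the chromosome 13 cluster. These are 6 of the 1973 gene rows of each table. The tissue was limb of mouse embryos of strain B6NCrl at 12.5 days of development, with no treatment or mutation named. Both sexes were pooled, and RNA below 30 nucleotides (nt) was sequenced. The labels place both libraries in 1 group: replicate 1 came from 88 pooled embryos and replicate 2 from 68. With 1 group there is no comparison of conditions, so the data give levels, ratios between genes and the spread between 2 pools. In bulk tissue, fewer cells of a type and less RNA per cell cannot be told apart.

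A microRNA gene is transcribed as a longer RNA that folds into a hairpin, and the hairpin is cut to a duplex of short arms, named 5p and 3p for their place in it. One arm is loaded into an Argonaute protein and represses messenger RNAs that pair with its seed, the bases 2 to 8. Hairpins of a cluster usually share a primary transcript. miR-23, miR-27 and miR-24 are known for high levels in endothelial cells and for roles in angiogenesis, in muscle progenitors, where miR-27 represses Pax3, and in fat and bone cell differentiation.

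The mature sequences are shown first because they decide which copy a read can be given to. They come from RefSeq on GRCm38.p6, the assembly also called mm10, in which all 6 members had a hairpin. Each is written 5′ to 3′ with the seed in capitals.
miR-23a-3p of Mir23a: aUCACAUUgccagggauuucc
miR-27a-3p of Mir27a: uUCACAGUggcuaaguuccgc
miR-27b-3p of Mir27b: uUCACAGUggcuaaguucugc
miR-24-3p of Mir24-2 and Mir24-1: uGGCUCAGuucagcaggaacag
miR-24-2-5p of Mir24-2: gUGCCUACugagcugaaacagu
miR-24-1-5p of Mir24-1: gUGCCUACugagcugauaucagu
miR-3074-5p of Mir3074-1 and Mir3074-2: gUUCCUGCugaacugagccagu
The remaining 5p arms in the table were miR-23a-5p (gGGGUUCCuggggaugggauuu), miR-23b-5p (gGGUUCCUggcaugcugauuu), miR-27a-5p (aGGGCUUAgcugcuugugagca) and miR-27b-5p (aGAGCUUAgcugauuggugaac). miR-23b-3p is named only.

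miR-27a-3p and miR-27b-3p have the same seed and match at 20 positions, differing by C19U, counted from 1 at the 5′ end with the base of miR-27a-3p first. A start of 19 nt or more of either sequence was found in only 1 locus among 1005 annotated hairpins, searched on both strands, and the same length held for miR-23a-3p. miR-24-3p was found whole in 2 loci, and so was miR-3074-5p. These are the only members, 2 of 6 (Mir24-2 and Mir3074-1), with a listed mature sequence in more than 1 locus. Among the 916 gene rows with a mature sequence in the table, 84 (9.17%) had one. The 5p arms of the miR-24 copies share their first 16 bases and then differ, so a whole read of that arm can be given to 1 copy.

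The hairpins of the miR-24 copies show how the strands overlap. Mir24-2 lies on the plus strand of chromosome 8 (84208815 to 84208921), Mir24-1 on the plus strand of chromosome 13 (63301208 to 63301275), and Mir3074-1 on the minus strand of chromosome 13 (63301199 to 63301283). Capitals mark miR-24-3p in the upper pair and miR-3074-5p in the last.
Mir24-2 hairpin: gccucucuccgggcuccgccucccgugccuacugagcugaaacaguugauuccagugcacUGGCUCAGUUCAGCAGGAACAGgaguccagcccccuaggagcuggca
Mir24-1 hairpin: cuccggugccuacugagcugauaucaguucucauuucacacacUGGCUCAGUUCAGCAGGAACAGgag
Mir3074-1 hairpin: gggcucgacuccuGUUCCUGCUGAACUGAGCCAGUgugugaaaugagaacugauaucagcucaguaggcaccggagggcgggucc
Mir3074-1 contains the whole of Mir24-1 read from the other strand, and miR-3074-5p is the reverse complement of miR-24-3p over 20 nt. Mir24-1 and Mir3074-2 have no row of their own among those used here, so reads of Mir24-1 are taken from the opposite strand of Mir3074-1. The hairpins of Mir24-2 and Mir24-1 share a run of 28 nt. Mir23a and Mir23b share at most 20 nt in a row, as do Mir27a and Mir27b.

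On chromosome 8 the cluster spans 404 nt and has no host gene on either strand over Mir23a (84208518 to 84208592) or Mir27a (84208672 to 84208758), both on the plus strand. Mir24-2 overlaps the start of Gm26532, a lincRNA, on its own strand and Mir3074-2 on the other. On chromosome 13 the cluster spans 800 nt inside the gene 2010111I01Rik, called Aopep in RefSeq, which encodes an aminopeptidase and lies on the plus strand. Mir23b (63300484 to 63300557) overlaps none of its annotated exons, Mir27b (63300712 to 63300784) overlaps an exon of 1 transcript, and Mir24-1 and Mir3074-1 overlap exons of 4. Introns of Fancc, a gene of DNA crosslink repair, cover the same stretch on the minus strand. The gap between the first 2 hairpins is 79 nt on chromosome 8 and 154 nt on chromosome 13, and that to the miR-24 hairpin is 56 nt and 423 nt.

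**Figure D1:**
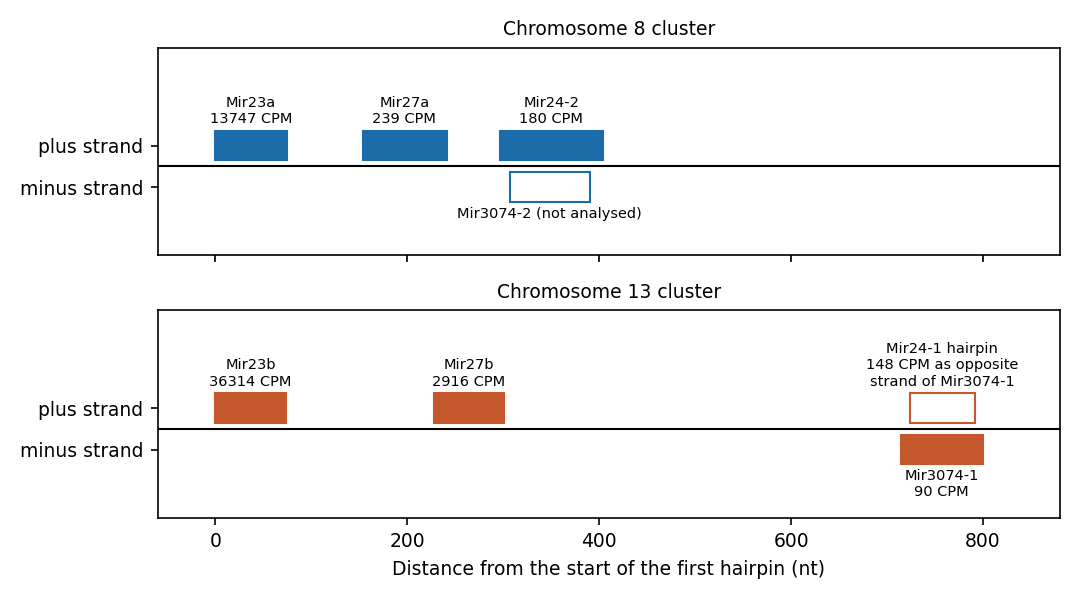
Hairpins of both clusters by distance from the start of the first hairpin (nt, horizontal axis) and by strand. Filled boxes are the 6 members with their mean level in CPM over 2 libraries and open boxes are overlapping hairpins, and the chromosome 13 cluster is the longer, at 800 nt against 404 nt.

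Levels are given as CPM, counts on the gene's own strand per 1000000 such counts over all gene rows. Replicate 1 held 4525636 of these counts and replicate 2 held 3604284. A count covers a whole hairpin, both arms together. Reads that mapped to several places, 27.2% of all reads in replicate 1 and 23.7% in replicate 2, are in no gene row. Rows of microRNAs with identical copies may thus stand too low, and all levels, shares and ranks here are among the reads given to gene rows. All 6 members stood at 10 CPM or more in both libraries, as did 286 of all gene rows (14.5%). Together the members held 4.42% of the counts in replicate 1 and 6.28% in replicate 2, or 5.35% ± 1.31 (SD, n = 2). Mir23a and Mir23b made up 92.6% of this sum in replicate 1 and 94.3% in replicate 2.

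Mir23b, the chromosome 13 copy of miR-23, was the highest member at 29702 CPM in replicate 1 and 42925 CPM in replicate 2 (36314 ± 9350, SD, n = 2). It ranked 7 among all gene rows by the mean and 6 when CPM was divided by row length, and its range over the libraries overlapped those of Mir99a above it and Mir99b below it. Mir23a, the chromosome 8 copy, stood at 11246 CPM in replicate 1 and 16248 CPM in replicate 2 (13747 ± 3537, SD, n = 2), at rank 19. Its range overlapped those of its neighbours in rank, Mir93 and Mir100. In both rows replicate 2 was the higher library, and the ranges of Mir23a and Mir23b did not overlap.

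Mir27b had 2770 CPM in replicate 1 and 3062 CPM in replicate 2 (2916 ± 206, SD, n = 2), at rank 59. Mir27a had 236 CPM and 242 CPM (239 ± 4.2, SD, n = 2), at rank 148. As with miR-23, the chromosome 13 copy of miR-27 was the higher in both libraries. The neighbours in rank, Mir382 and Mir361 around Mir27b and Mir92-2 and Mir598 around Mir27a, had ranges that overlapped the member's own.

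Mir24-2 and the own strand of Mir3074-1 had the lowest levels of the members. Mir24-2 had 168 CPM in replicate 1 and 193 CPM in replicate 2 (180 ± 17.6, SD, n = 2), at rank 164, between Mir667 and Mir451a. Mir3074-1 had 84.0 CPM and 96.8 CPM on its own strand (90.4 ± 9.1, SD, n = 2), at rank 196, between Mir495 and Mir152. With 380 and 349 counts it was also the least precise, with 95% exact Poisson intervals of 75.7 to 92.8 CPM and 86.9 to 108 CPM that overlapped. All intervals here cover counting error alone, because they are computed from the counts themselves. They allow neither for the spread between pools nor for PCR copies of 1 molecule counted as separate reads.

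**Figure D2:**
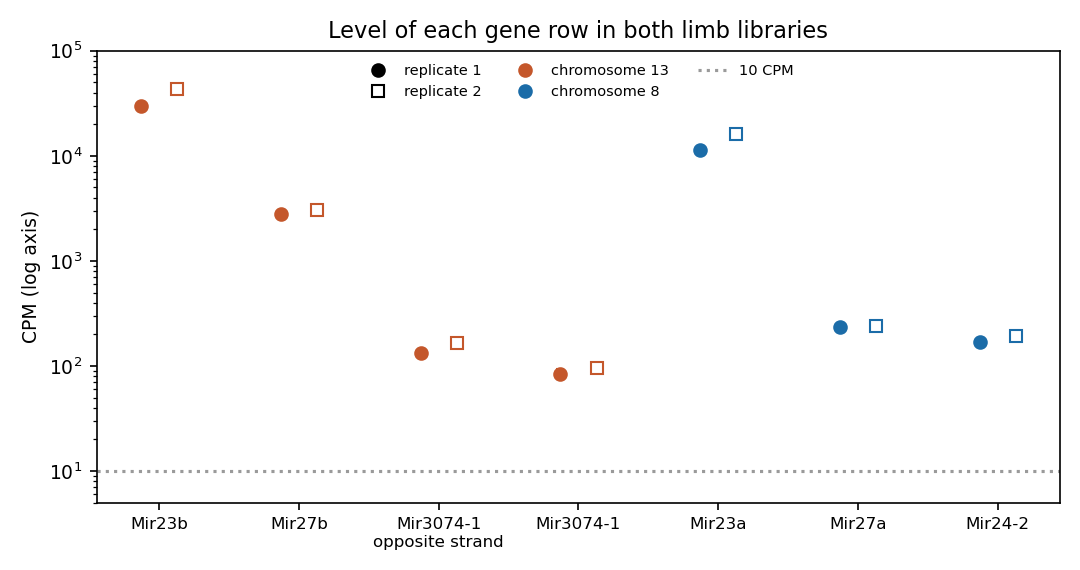
Level of each gene row in CPM (log axis) in replicate 1 (filled circles) and replicate 2 (open squares), with 95% exact Poisson intervals that are mostly smaller than the symbols. The miR-23 rows lie highest in both clusters, from 11246 to 42925 CPM, and the rows of the miR-24 loci lowest, all above the dotted line at 10 CPM.

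The chromosome 13 copy of miR-23 and that of miR-27 led the chromosome 8 copy by different factors. The counts of Mir23b were 2.64 times those of Mir23a in either library, or 2.68 times per nt of row length. Mir23b thus held 72.5% of the miR-23 counts in either library, with 95% Clopper-Pearson intervals of 72.3 to 72.7 in replicate 1 and 72.4 to 72.7 in replicate 2. The level of both rows differed 1.44-fold (Mir23a) and 1.45-fold (Mir23b) between the libraries, while the intervals of their share overlapped almost entirely. The counts of Mir27b were 11.7 times those of Mir27a in replicate 1 and 12.7 times in replicate 2, or 14.0 and 15.1 times per nt. Its share of the miR-27 counts was 92.1% (91.7 to 92.6) and 92.7% (92.2 to 93.1), and these intervals overlapped too.

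Within each cluster the miR-23 row had far more counts than the miR-27 row, by a factor that differed between the clusters and the libraries. These are ratios of read counts, and how counts of different sequences relate to numbers of molecules was not tested. The counts of Mir23a were 47.7 times those of Mir27a in replicate 1 and 67.2 times in replicate 2 (55.3 and 77.9 times per nt). For Mir23b over Mir27b these factors were 10.7 and 14.0 (10.6 and 13.8 per nt). The share of Mir23b in its sum with Mir27b was 91.5% (91.3 to 91.6) in replicate 1 and 93.3% (93.2 to 93.5) in replicate 2, so the intervals lay apart, and those of Mir23a with Mir27a lay apart as well. Intervals of the 2 pools thus overlapped for the shares between the copies of miR-23 and of miR-27, and lay apart for the shares between the miR-23 and miR-27 hairpins of 1 cluster. Overlap also depends on the number of counts. The miR-27 shares rest on fewer counts and have wider intervals than the others here, so their overlap says less.

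**Figure D3:**
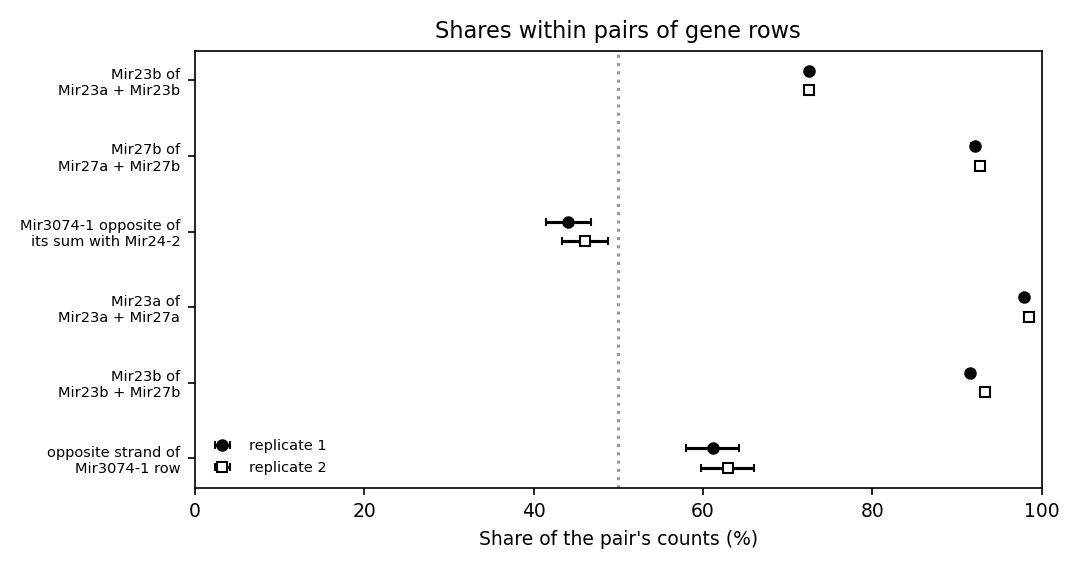
Share of the first-named row in the summed counts of each pair (%, horizontal axis) in replicate 1 (filled circles) and replicate 2 (open squares), with 95% Clopper-Pearson intervals. Mir23b lies at 72.5% of the miR-23 counts in both libraries, and the intervals of the libraries lie apart only for Mir23a with Mir27a and for Mir23b with Mir27b.

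The Mir3074-1 row carried more reads on the opposite strand, that of Mir24-1, than on its own. Opposite-strand counts were 599 in replicate 1 and 593 in replicate 2, or 132 CPM and 165 CPM (148 ± 22.7, SD, n = 2). They made up 61.2% of the row's reads in replicate 1 (95% Clopper-Pearson interval 58.1 to 64.3) and 63.0% in replicate 2 (59.8 to 66.0). Own-strand reads, on the strand of miR-3074, made up the rest in both libraries. Opposite-strand counts above 3 in both libraries, more than a count of 0 allows, were found in 18 of the 1973 rows, and Mir3074-1 ranked 10 among all rows by them. Opposite to Mir23a, Mir27a and Mir23b there were 0 counts in either library, and opposite to Mir27b 1 count in each. Mir24-2 had 7 opposite-strand counts in replicate 1 and 0 in replicate 2, on the strand of Mir3074-2.

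The miR-24 copies lay close to each other. Mir24-1, read from the opposite strand of Mir3074-1, held 44.1% (41.4 to 46.8) of the counts of both copies in replicate 1 and 46.1% (43.3 to 48.8) in replicate 2, below Mir24-2 in counts. Per nt of row length, with the 85 nt of Mir3074-1 taken for Mir24-1, their ratio was 0.99 and 1.08. The order of the copies was not resolved on that scale. The Mir24-1 hairpin itself is shorter, at 68 nt, so the order per nt depends on the length taken. Both copies together held 1358 counts in replicate 1 and 1287 in replicate 2, against 185317 and 213277 for the miR-23 rows. The tables set apart 2892656 reads (27.2% of all reads) in replicate 1 and 2310423 (23.7%) in replicate 2 that mapped to several places. A whole miR-24-3p read matches 2 loci, so the levels of the miR-24 and miR-3074 rows leave out any read that matched both. How many of the set-apart reads were miR-24-3p was not tested.

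Other listed microRNAs with the miR-24-3p seed added no reads. The rows of Mir6413, Mir6410, Mir6369 and Mir5124b, whose mature sequences carry the same bases 2 to 8, had 0 counts in both libraries, which allows up to 0.663 CPM in replicate 1 and 0.832 CPM in replicate 2 (3 counts). Among the listed mature sequences, which cover 916 of the 1973 gene rows, none outside the members shared the seed of miR-23a-3p or miR-27a-3p at bases 2 to 8.

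Between the libraries all 6 members had a higher CPM in replicate 2, and 4 of the 6 passed a test against counting error. That direction holds per own-strand gene count. Of all reads, 42.5% were counted on genes in replicate 1 and 37.0% in replicate 2. Per reads of the whole table, Mir27a and Mir27b were lower in replicate 2. Mir24-2 and Mir3074-1 were nearly level on that scale, and Mir23a and Mir23b stayed higher. The exact binomial test, adjusted over 436 rows with 10 counts or more by the Benjamini-Hochberg method at 0.05, called 41.7% of all rows, 20.4% as higher and 21.3% as lower in replicate 2. It compares these 2 libraries and not conditions. The log2 ratio of replicate 2 over replicate 1, on counts with 0.5 added, was 0.53 (SE 0.0087, from counting) for Mir23a and 0.53 (SE 0.0054) for Mir23b, both called with p-values too small to be stored. Mir27b had a log2 ratio of 0.14 (SE 0.019) with an adjusted binomial p of 1.02e-13, and Mir24-2 one of 0.20 (SE 0.076) with an adjusted binomial p of 0.0230. Mir27a at 0.04 (SE 0.066) and Mir3074-1 at 0.21 (SE 0.11) did not pass, with adjusted binomial p-values of 0.722 and 0.122.

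The miR-23 rows thus differed more between the pools than the miR-27 rows beside them. The median log2 ratio was 0.20 over the members and -0.01 over all rows tested. Among the 189 gene rows at 100 CPM or more in the mean, whose log2 ratios had an SD of 0.32, Mir23b stood at position 15 and Mir23a at position 16 from the highest, Mir24-2 at 40, Mir27b at 56 and Mir27a at 82. The negative binomial exact test in edgeR, which adds a dispersion shared by all genes and estimated from the same libraries (a biological coefficient of variation of 16.4%), called 0 of the 436 rows (0.0%), with 25 at an unadjusted p under 0.05. In it Mir23a and Mir23b had adjusted p-values of 0.944 each from edgeR. Since each arm is 1 library and the dispersion was taken from the same pair, this test could hardly call a row, and nothing is read from its count.

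**Figure D4:**
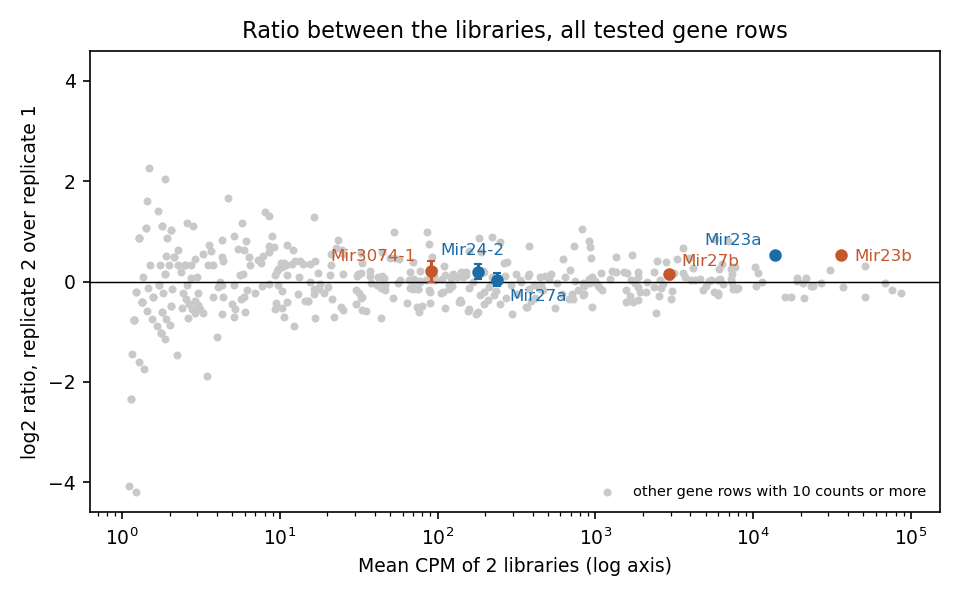
Log2 ratio of replicate 2 over replicate 1 (vertical axis) against mean CPM (log axis) for the 436 rows tested, with the members coloured by chromosome (blue for 8, orange for 13) and bars that span 95% counting intervals. Mir23a and Mir23b lie together at 0.53, above Mir27a and Mir27b at 0.04 and 0.14.

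The labelled tissue was checked against marker genes. Rows listed for limb mesenchyme (Mir196b, Mir10a, Mir10b, Mir615 and Mir214) were detected (10 CPM or more in both libraries) in 5 of 5 cases. Cartilage was detected in 2 of 2 rows and ectoderm in 3 of 3. So was 1 of the 2 genes of other tissues, the liver gene Mir122 at 15.0 ± 2.8 CPM. The heart gene Mir208a stood at 10.3 ± 1.5 CPM and was under 10 CPM in replicate 1. Skeletal muscle was detected in 2 of 3 rows (not Mir1a-1) and neural tissue in 1 of 2, with Mir124a-1 at 0 counts. Reads that mapped to several places are left out of every row. The low counts of Mir1a-1 and Mir124a-1 are therefore not read as absence of a tissue. Endothelium, a known site of these clusters, was marked by Mir126a at 18526 CPM in replicate 1 and 19409 CPM in replicate 2 (log2 ratio 0.07). The red blood cell markers Mir451a, Mir144 and Mir486 summed to 257 CPM in replicate 1 and 180 CPM in replicate 2, mostly from Mir451a at 212 and 135 CPM. The binomial test called 2 of these 3 lower in replicate 2 and Mir486 higher, at 17.5 and 27.7 CPM. Over all 436 rows tested it called 21.3% lower and 20.4% higher, so little is read from calls in 3 rows. The white blood cell markers Mir223, Mir155 and Mir150 summed to 581 and 655 CPM. Only Mir223 was called, as higher in replicate 2, at 239 and 312 CPM. Mir155 had 339 and 337 CPM, and Mir150 was not detected, at 3.1 and 5.5 CPM. The part of blood cells in the level of the miR-23 rows was not tested.

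Beside other microRNA genes of vessel cells, Mir23b was the highest row, at 36314 CPM in the mean against 18968 CPM for Mir126a. Per 100 nt of row length these were 49073 and 25983 CPM. Of a list of 9, with 8 rows analysed here, 7 were at 10 CPM or more in both libraries: after Mir126a came Mir143, a smooth muscle and pericyte microRNA, at 5260 ± 26 CPM, followed by Mir145a, Mir218-2, Mir221, Mir222 and Mir218-1 at 75.0 to 11.9 CPM in the mean. Mir145b had 0 counts and Mir126b was not analysed here. Of the 7 rows tested between the libraries, 1 was called higher in replicate 2 (Mir126a) and 1 lower (Mir221, log2 ratio -0.72), against 41.7% called over all rows, and their median log2 ratio was 0.01. The log2 ratios of 0.53 for Mir23a and for Mir23b stand beside 0.07 for Mir126a and 0.01 for Mir143. Mir218-1 and Mir222 stood at 0.36 and 0.20, Mir145a and Mir218-2 at -0.14 and -0.15, and none of these was called. The part of vessel cells in the miR-23 difference was not tested.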

How the data were processed

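Small RNA of embryonic limb was sequenced in 2 libraries. The authors deposited 1 table of raw read counts per library, with rows named by gene identifier. Mir24-1, Mir3074-2 and Mir126b had no row among those used here. Its 3 columns, which carry no header, were read as both strands, own strand and opposite strand, as the first equalled the sum of the others in every gene row. The assembly was mm10 and the annotation GENCODE M4, per the deposited file descriptions. The aligner, the counting program and their settings were not given in the sources used here. Of all reads, 42.5% (replicate 1) and 37.0% (replicate 2) were counted on genes, and the 4 rows without a gene were excluded. Unmapped reads made up 23.8% of all reads in replicate 1 and 32.6% in replicate 2.

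Identifiers were matched without version to GENCODE M21 (1894 of 1973 rows). For Mir23b, Mir27b and Mir3074-1 the version differs from M21, so the counted boundaries may differ from those printed. Lengths per row are those of M21.

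CPM used own-strand totals. Libraries were compared with two-sided exact binomial tests (scipy 1.17.1), checked on simulated counts with Poisson counting error alone. That is the error the test assumes, so the check does not cover any further spread between the libraries. TMM scaling and the negative binomial exact test used edgeR 4.0.16, and size factors came from DESeq2 1.42.0 (R 4.3.3). Intervals are at 95%. That the libraries are separate pools rests on the labels. Binomial p-values set the difference of these 2 libraries against counting error alone and do not measure the spread between pools.

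Besides the members, genes were named by shared seed, by being next in rank, or from lists of cell type markers and vessel microRNAs. Members and lists were chosen with earlier results of these data known.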

Additional observations from a re-analysis of the deposited data

Results flagged for a closer look

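The strand opposite to Mir24-2 held 7 counts in replicate 1, above the 3 counts that a count of 0 allows, and 0 counts in replicate 2. This was noted because the levels were measured on the gene's own strand. The strand is that of Mir3074-2, and 7 counts are 1.55 CPM (95% exact Poisson interval 0.622 to 3.19).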

How the results depend on the processing

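With 1 group of 2 libraries, values rest on few samples. No paired analysis was possible because the labels give 1 group only. Scaling by TMM or DESeq2 size factors and testing rows from 1 count kept the direction and the side of the threshold of all 6 members. The negative binomial test in edgeR, whose dispersion comes from the same pair of libraries, kept the direction but called none: log2 ratios were 0.55 for Mir23a, 0.55 for Mir23b, 0.22 for Mir24-2 and 0.16 for Mir27b, and its calls over all rows fell from 182 to 0. Per 1000000 reads of the whole table, levels were 5397 for Mir23a, 94.9 for Mir27a, 71.3 for Mir24-2, 14256 for Mir23b, 1155 for Mir27b and 35.8 for Mir3074-1. On that scale the direction was not kept by all members. Mir27a and Mir27b were lower in replicate 2, Mir23a and Mir23b were higher, and Mir24-2 and Mir3074-1 were nearly level. With both strands in the denominator Mir27a stood at 233 CPM, and with both strands of its row Mir3074-1 stood at 239 CPM. Per nt of row length, the share was 72.8% for Mir23b in miR-23, 93.6% for Mir27b in miR-27 and 50.8% for the opposite strand of Mir3074-1 with Mir24-2, where the order of that last pair turned in replicate 2 only (ratios of 0.99 and 1.08). Ranks per nt were 176 for Mir24-2, 6 for Mir23b and 54 for Mir27b. Leaving out 1 library gave ranks from 159 to 164 for Mir24-2, 6 to 7 for Mir23b and 194 to 202 for Mir3074-1. Every other level, share and rank moved by no more than 1 SD. Depth limits Mir3074-1 and Mir24-2 most, the only members at under 1000 own-strand counts in both libraries. The cause of each change was not tested, except that dividing by length or by all reads changes the scale itself.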

Other observations

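The seed of miR-27-3p also occurs, moved by 1 base to bases 1 to 7, in miR-128-3p (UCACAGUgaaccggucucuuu, with those bases in capitals), a microRNA known from brain. Its genes Mir128-1 and Mir128-2 encode the same mature sequence. Mir128-1 stood at 125 CPM in replicate 1 and 190 CPM in replicate 2, and Mir128-2 at 57.2 CPM and 114 CPM. Both were higher in replicate 2 and below Mir27a at 236 CPM and 242 CPM. Reads that match both copies are left out of these levels.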
